A study of Homo sapiens with 8 samples.

Results

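The 38 genes described here carry out the interferon response and the presentation of antigens on HLA class I molecules. They were chosen by name and function, and every one of them had an entry among the 20050 protein-coding genes of RefSeq, where DDX58 is listed as RIGI. An antibody against N4-acetylcytidine (ac4C), an acetylated cytidine in RNA, was used to enrich RNA of NAT10-knockout SiHa cells (labelled KONAT10SiHa) and of SiHa cells. SiHa is an established, papillomavirus-positive cervical carcinoma line, and NAT10 is the enzyme that forms ac4C. The 8 libraries were 2 immunoprecipitates and 2 inputs of each population, and the labels name no interferon, other agent, guide or clone. The values used here are 1 peak list for each population, and the list with an added K in its name was read as that of the knockout. A peak is a stretch of a transcript enriched by the antibody, with the authors' p-value and, in the knockout list alone, the authors' fold enrichment. No count, depth or value of a single replicate stands in these lists, so no difference below could be set against the spread between replicates, and none was tested.

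Cells answer a virus in a relay. Sensors such as RIG-I (gene DDX58), MDA5 (IFIH1) and cGAS detect foreign nucleic acid and signal through MAVS or STING to the kinase TBK1 and the transcription factor IRF3, which switch on interferon genes. Secreted interferon then binds receptors on the same or neighbouring cells, JAK kinases phosphorylate STAT proteins, and the STAT and IRF factors induce antiviral effectors and the machinery that loads peptides on HLA class I. Many induced genes carry in their promoter the interferon-stimulated response element, a site for the complex of STAT2 and IRF9 and for other IRF proteins. Epithelial tumour cells use the same machinery to display or to hide antigens.

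An Ensembl identifier in the lists was given a gene's name when at least 90% of the bases of its peaks lay in that gene's RefSeq span on the same strand, when no other span held as many, and when no other identifier claimed the span. By this rule 11 of the 38 genes (28.9%) had a knockout peak, against 14.4% of all protein-coding genes. A SiHa peak was found in 13 genes (34.2%), against 28% of all protein-coding genes. Peaks in both lists were found in 5 genes (13.2%, background 8.31%), a knockout peak alone in 6 (15.8%, background 6.08%) and a SiHa peak alone in 8 (21.1%, background 19.7%). Of the 13 genes with a SiHa peak, 8 (61.5%) had no knockout peak, against 70.4% of all protein-coding genes with a SiHa peak. Of the 11 with a knockout peak, 6 (54.5%) had no SiHa peak, against 42.3%. A further 7 genes had peaks in their span whose identifier could not be assigned, and 12 had no peak on their own strand. Counted by any peak on the gene's strand, or on either strand where the reference table gives none, 14 genes (36.8%) had a knockout peak, against 16.4% of all protein-coding genes. By the same count 18 genes (47.4%) had a SiHa peak, against 32.5%. Peaks in both lists were then in 6 genes (15.8%, background 9.5%). A knockout peak alone was in 8 (21.1%, background 6.93%) and a SiHa peak alone in 12 (31.6%, background 23%). The remaining 12 genes had no peak, as did most protein-coding genes. The genes were not matched to the background for expression, which a peak list does not give, or for length, so these shares are a description. A series of whole-number multiples of 2.56 holds the folds of 60.6% of the knockout list. Without the peaks on it, 6 genes (15.8%) had a knockout peak (background 6.54%) and 2 (5.26%) a knockout peak alone (background 2.28%). With peaks of −log10 p above 5 in both lists, 8 had a knockout peak (background 8.39%) and 6 a SiHa peak (background 19.1%). The p scales of the lists are not stated to be common, so a shared threshold may not mean the same in both.

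Of 11 genes of antigen presentation, 5 had a knockout peak and 3 a SiHa peak. Of 7 receptors and kinases, 0 had a named knockout peak and 3 had a SiHa peak. Of 6 transcription factors, 1 had a knockout peak and 3 a SiHa peak. The 8 induced effectors had 3 of each, and of 6 sensors and adaptors 2 had a knockout peak and 1 a SiHa peak. Off the series of multiples of 2.56, antigen presentation had 3 genes with a knockout peak and 3 with a SiHa peak, and sensors and adaptors 0 and 1. With peaks of −log10 p above 5 in both lists, antigen presentation had 5 and 1, and receptors and kinases 0 and 1. At that threshold transcription factors had 1 and 1, induced effectors 1 and 2, and sensors and adaptors 1 and 1. These groups are small, and the difference between them was not tested. Here too the shared threshold may not mean the same in both lists.

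**Figure D1:**
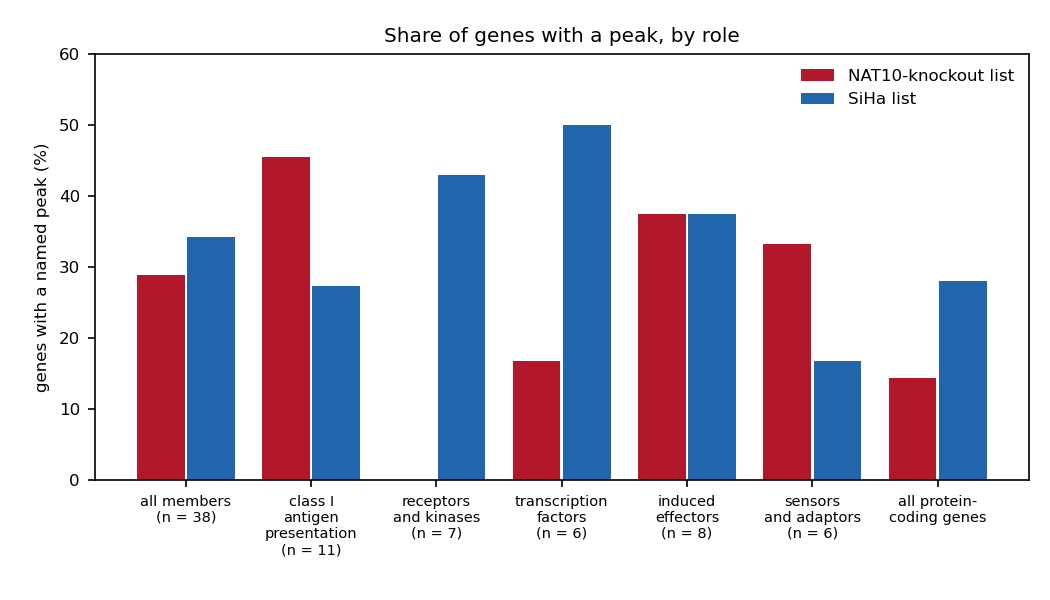
Share of genes with a named peak (%, vertical axis) in the NAT10-knockout list (red) and the SiHa list (blue), for the 38 genes, their 5 roles and all protein-coding genes. Antigen presentation had the highest knockout share, 45.5%, while receptors and kinases had no knockout bar beside a SiHa share of 42.9%.

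**Figure D2:**
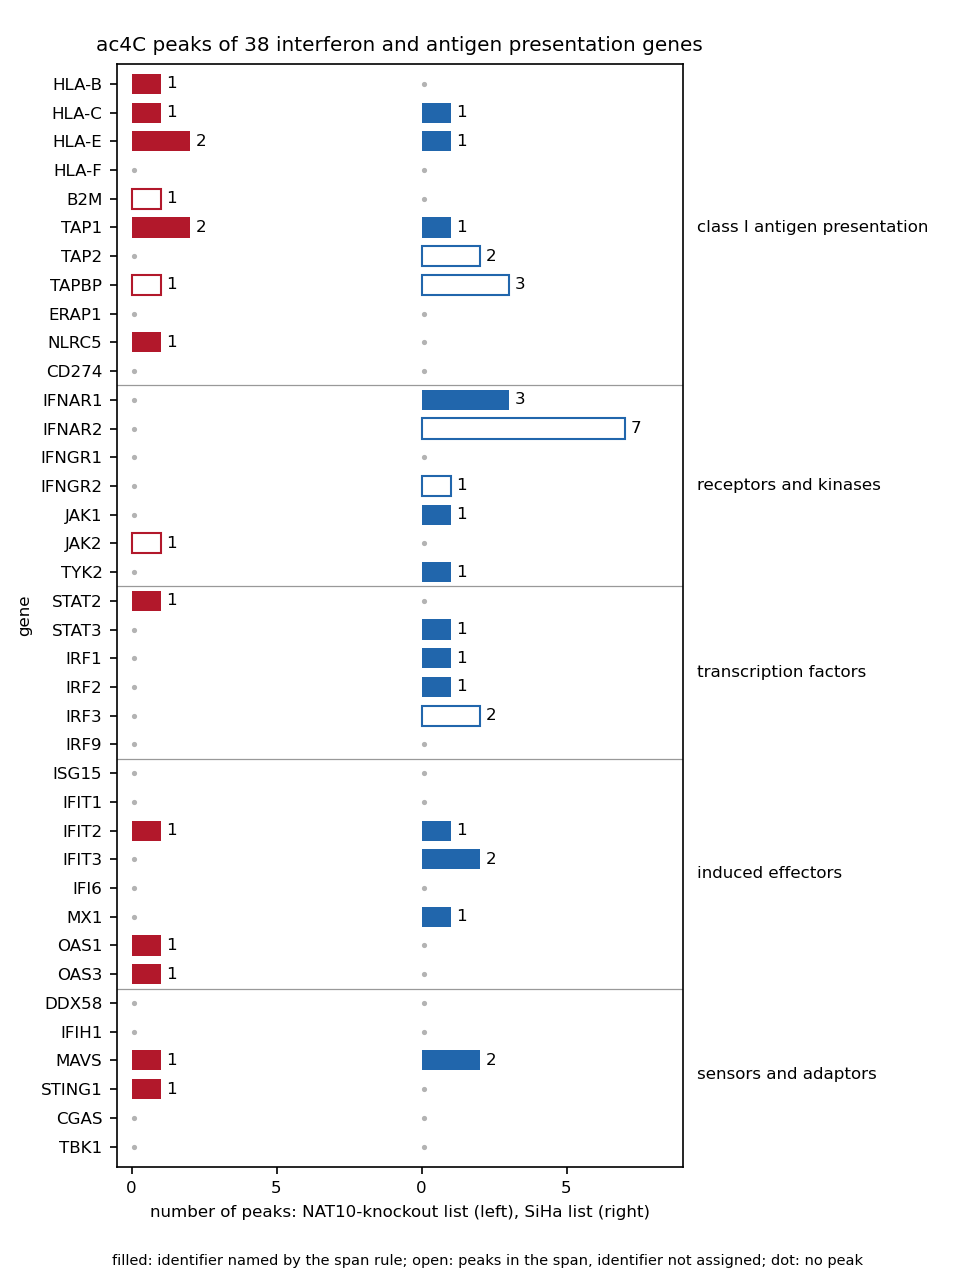
Number of peaks of each of the 38 genes (horizontal bars) in the NAT10-knockout list on the left and the SiHa list on the right, ordered by role. Filled bars are peaks of named identifiers, open bars are peaks in the gene's span whose identifier was not assigned, and dots mark genes without a peak.

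Sequence was at hand only around the starts of genes, and of the peaks of the 38 genes only those of TAPBP and B2M lay across a start. These are described below, and the promoters were first searched without regard to peaks. The RefSeq promoter table (GRCh38.p14, 250 bases before to 50 after the start) covered 30 of the 38 genes. The core of the interferon-stimulated response element, searched as GAAANNGAAA on both strands with overlapping matches allowed, was in 14 of these 30 windows (46.7%), against 996 of 27305 windows of all genes (3.65%). It was in 7 of 9 promoters of antigen presentation genes, 6 of 7 of induced effectors and 1 of 4 of sensors and adaptors. It was in 0 of 6 promoters of receptors and kinases and 0 of 4 of transcription factors. Of the 14 genes with the element, 4 had a knockout peak in their span, 5 a SiHa peak and 7 no peak. Of the 16 without it, 6 had a knockout peak, 8 a SiHa peak and 4 no peak. By this count 16.4% of all protein-coding genes had a knockout peak, 32.5% had a SiHa peak, and most had no peak. The genes were chosen for their interferon function, so their share with the element reflects that choice and is not a result of the peak lists. The match describes these letters only, and the lists say nothing of binding or transcription. The first match is given here for 6 of the 14 promoters, within 30 bases on the strand of the gene. These 6 are examples and do not represent the 14, of which 7 had no peak. None of the 6 stretches lies under a listed peak of its gene. Capitals mark the letters of the element (TTTC for a match on the other strand).
B2M, chr15:44711363-44711392, plus strand: gagactctaaGAAAAGGAAACTGAAAacgg
TAP1, chr6:32853819-32853848, minus strand: aggcggccgcTTTCGATTTCGCTTTCccct
TAP2, chr6:32838778-32838807, minus strand: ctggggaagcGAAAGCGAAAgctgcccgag
ISG15, chr1:1013374-1013403, plus strand: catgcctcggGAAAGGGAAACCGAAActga
IFIT3, chr10:89327831-89327860, plus strand: agccgttaggTTTCATTTTCctcctcccaa
OAS3, chr12:112938321-112938350, plus strand: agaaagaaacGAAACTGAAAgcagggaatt
Of these 6 genes, OAS3 had a knockout peak alone, IFIT3 a SiHa peak alone, TAP1 peaks in both lists and ISG15 no peak, while the peaks of B2M and TAP2 were not assigned by the naming rule.

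TAPBP encodes tapasin, which holds empty HLA class I molecules next to the peptide transporter. Its identifier (ENSG00000231925) had 1 knockout peak and 3 SiHa peaks in the span at chr6:33299694-33314078. It missed the naming rule because the SiHa peak at chr6:33314058-33314267, with a deposited p of 4e-11, had 21 of its 210 bases inside the RefSeq span and 189 before the start. Those 189 bases are shown because a peak in RNA covers them, with the letters of 2 overlapping matches of the response element, which begin 20 bases before the start, in capitals.
TAPBP, chr6:33314079-33314267, minus strand: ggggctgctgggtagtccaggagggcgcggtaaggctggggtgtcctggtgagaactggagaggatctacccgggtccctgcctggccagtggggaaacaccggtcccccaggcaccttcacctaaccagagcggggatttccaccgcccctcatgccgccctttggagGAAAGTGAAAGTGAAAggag
Cytidine made up 27.5% of this stretch, against a median of 28.6% over the same window of all promoters. A run of 4 triplets that each begin with cytidine (CNNCNNCNNCNN, searched on the transcript strand alone with overlapping matches allowed), a pattern earlier work linked to ac4C, occurred at 2 positions, and 63.4% of all promoters held it in this window. The other end of TAPBP carried, in each list, the strongest peak of the 38 genes by rank. In the knockout list a peak of 180 bases at chr6:33299754-33299933 had a deposited p of 1e-154, above 99.1% of that list, and a fold of 7.57. In the SiHa list a peak of 270 bases at chr6:33299724-33299993 contained all of it, with a p of 1e-113, a percentile of 93.7 in its own list. The midpoints of these peaks were 149 and 164 bases before the RefSeq end of TAPBP. The span of RGL2 also covers this place in RefSeq. The remaining SiHa peak, at chr6:33301578-33301758, had a p of 0.00036 and no knockout counterpart within 1644 bases.

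B2M encodes beta-2 microglobulin, the invariant light chain of every HLA class I molecule. Its single peak was in the knockout list, at chr15:44711477-44712000 in 2 blocks (211 bases), with a deposited p of 1.3e-55 (percentile 96) and a fold of 3.59 (percentile 9.23). The SiHa list held no peak in B2M. The identifier ENSG00000166710 missed the naming rule because 171 of the 211 bases lay in the RefSeq span, although no other span was touched. The 40 bases of this peak before the RefSeq start are shown as the only part of the peak whose sequence was read.
B2M, chr15:44711477-44711516, plus strand: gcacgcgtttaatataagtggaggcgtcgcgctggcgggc
Cytidine made up 22.5% of them, against a median of 27.5% over the same window of all promoters, and the run of 4 such triplets was in none of them, against 22.1% of promoters.

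The HLA class I heavy chains carried 4 knockout peaks and 2 SiHa peaks. HLA-B, a classical presenter of peptides to CD8 T cells, had a knockout peak of 180 bases at chr6:31356261-31356440, with a p of 4e-29 and a fold of 15.4, and no SiHa peak. HLA-C, which also engages killer-cell receptors, had a peak in each list. Its knockout peak spanned 31270350 to 31271145 in 2 blocks of 209 bases in all, with a p of 7.8e-06 and a fold of 5.98. Its SiHa peak spanned 31269987 to 31270260 in 2 blocks of 150 bases in all, with a p of 8.3e-05. The 2 peaks shared no base and were 89 bases apart.

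HLA-E presents signal peptides to the NKG2A receptor of natural killer cells. Its knockout peaks were the broadest of the group. The first spanned 30490329 to 30491278 in 2 blocks (329 bases), with a p of 7.9e-19 and a fold of 12.4. The second spanned 30491397 to 30492807 in 5 blocks (268 bases), with a p of 4e-41 and a fold of 154, above 98% of the folds of its list. The SiHa list held 1 HLA-E peak, farther along the transcript at 30493164 to 30493402, with a p of 7.9e-14. It shared no base with the knockout peaks, the nearer of which ended 356 bases before it. HLA-F, a nonclassical relative, had no peak. The class I genes are near-identical in places and highly polymorphic, and the handling of reads that match several of them is not stated, so the assignment of a peak to 1 HLA gene is uncertain.

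**Figure D3:**
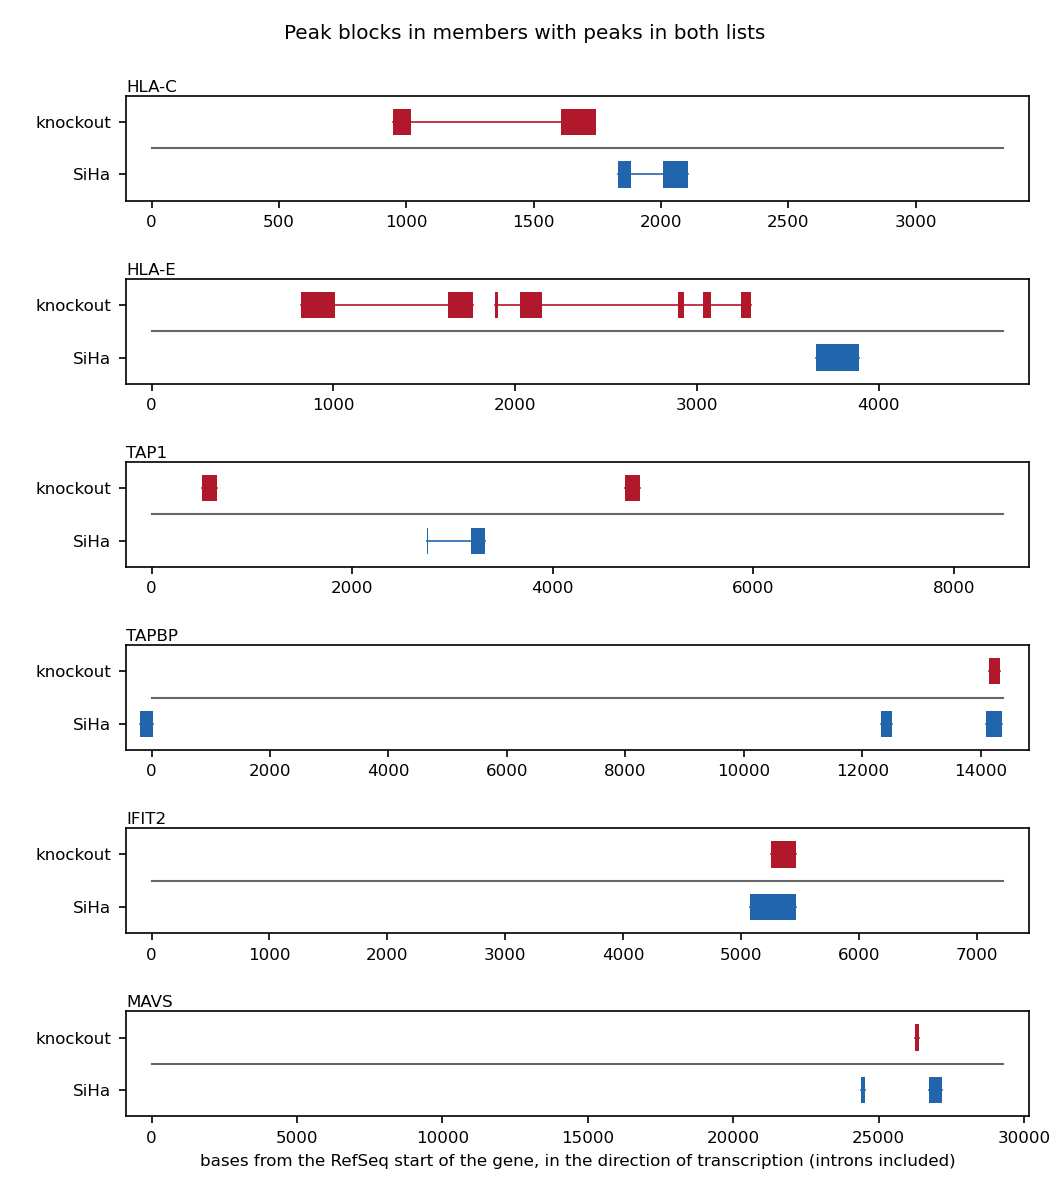
Blocks of the peaks of the 6 genes with peaks in both lists, in bases from the RefSeq start in the direction of transcription (introns included), with the NAT10-knockout list above the gene line and the SiHa list under it; thin lines join blocks of 1 peak. Blocks of the lists coincide in TAPBP and IFIT2 and lie apart in HLA-C, HLA-E, TAP1 and MAVS.

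The peptide transporter differed between its subunits. TAP1 had 2 knockout peaks, at 32853051 to 32853200 with a p of 3.2e-16 and a fold of 66.7, and at 32848830 to 32848980 with a p of 0.0001 and a fold of 5.64. Its SiHa peak lay between them, at 32850383 to 32850959 in 2 blocks, and its p of 0.027 placed it at percentile 4.55 of the SiHa list. It was 1402 bases from the nearer knockout peak. TAP2 had no knockout peak. In the SiHa list 2 identifiers, ENSG00000250264 and ENSG00000204267, had nearly the same peak in its span, of 179 and 181 bases, with the same p of 0.0046, so the name could not go to 1 of them. NLRC5, the transactivator of class I genes, had a knockout peak of 241 bases at chr16:57082451-57082691, with a p of 6.3e-25 and a fold of 17.9, and no SiHa peak. ERAP1, which trims peptides in the endoplasmic reticulum, had no peak on its strand. Its span also covers 2 knockout peaks on the other strand, which belonged to CAST and ERAP2. CD274, which encodes the checkpoint ligand PD-L1, had no peak.

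Named SiHa peaks were found in 3 of the 7 receptors and kinases, and in IFNAR1 alone with peaks of −log10 p above 5. IFNAR1, a chain of the type I interferon receptor, had 3 SiHa peaks in the last part of its span and no knockout peak. The strongest, at chr21:33355562-33355831, had a deposited p of 1.3e-16. The others, at chr21:33356607-33356787 and chr21:33357891-33358100, had deposited p-values of 0.0011 and 0.00031. In the span of IFNAR2, which encodes the other chain, there were 7 SiHa peaks and no knockout peak. Of these, 5 belonged to ENSG00000159110 on the plus strand, whose bases lie as fully in the readthrough gene IFNAR2-IL10RB. Its strongest peak spanned 33252781 to 33262650 in 3 blocks (271 bases), with a p of 1.8e-10. The other 2 belonged to ENSG00000223799 on the minus strand and overlapped plus-strand peaks, with a p of 1.7e-10 against 5.4e-10 at one place and 0.0066 on both strands at the other.

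The chains of the interferon gamma receptor had no named peak in either list, as held for all but 6840 of 20050 protein-coding genes. IFNGR1 had no peak, and the single peak in IFNGR2 was in the SiHa list, at 33436996 to 33437175 with a p of 0.0023, in a stretch that the span of TMEM50B also covers. The kinase genes JAK1 and TYK2, which serve the type I receptor, each had 1 SiHa peak near the end of the gene and no knockout peak. That of JAK1, at 64834277 to 64834426 on chromosome 1, had a p of 0.0066, and that of TYK2, at 10350769 to 10350889 on chromosome 19, a p of 0.027. Both were among the weakest of their list, at percentiles 14.8 and 4.55. In the span of JAK2, a kinase of the gamma receptor, 1 knockout peak with a p of 0.01 belonged to an identifier whose bases lie as fully in the pseudogene CSNK1G2P1 and in INSL6, and it was not counted as a JAK2 peak.

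Among the 6 transcription factors STAT2 alone had a knockout peak (16.7%, against 14.4% of all protein-coding genes). STAT2, the partner of IRF9 in the type I response, had a knockout peak of 180 bases at chr12:56343274-56343453, with a p of 9.8e-07 and a fold of 8.97, and no SiHa peak. STAT3, which serves interleukin-6 family receptors as well as interferon receptors, had 1 SiHa peak of 121 bases in 2 blocks and no knockout peak. IRF1, the activator downstream of interferon gamma, had 1 SiHa peak of 151 bases and no knockout peak. Both of these peaks had a p of 0.027. IRF2, an antagonist of IRF1 at many promoters, had a stronger SiHa peak at chr4:184388312-184388492, with a deposited p of 4.2e-08, 673 bases before the RefSeq end, and no knockout peak. IRF9 had no peak.

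IRF3, the factor activated by TBK1, could not be settled. In the SiHa list a peak of 181 bases on the plus strand (ENSG00000126453) and one of 150 bases on the minus strand (ENSG00000126456) overlapped, with the same p of 2.5e-40, where the spans of IRF3 and BCL2L12 overlap. The knockout list held no peak there. Such pairs recurred across the lists. In the knockout list 226 of 4557 peaks (4.96%) overlapped a peak on the opposite strand, and 72 of the 116 pairs (62.1%) had the same p. In the SiHa list 826 of 12924 peaks (6.39%) did, and 226 of 432 pairs (52.3%) had the same p. The library kit keeps strand, per the labels, and whether reads were counted by strand is not stated.

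The induced effectors were split between the lists. IFIT2, which restrains viral translation, was the only gene named by the rule whose peaks overlapped. Its knockout peak of 210 bases at chr10:89307301-89307510 had a p of 2e-17 and a fold of 7.95, and all of it lay in the SiHa peak of 390 bases at chr10:89307121-89307510, which had a p of 2.5e-23. Among all protein-coding genes with peaks in both lists 39.4% had such an overlap, against 1 of 5 here (20%). IFIT3, a partner of IFIT1 and IFIT2, had 2 SiHa peaks, with p-values of 1.9e-07 and 0.0012, and no knockout peak. MX1, a GTPase that traps viral nucleoprotein, had 1 SiHa peak with a p of 0.017 and no knockout peak. OAS1 and OAS3, oligoadenylate synthetases that activate RNase L, had knockout peaks alone, and neither reached a −log10 p of 5. That of OAS1, at chr12:112916628-112916808, had a p of 0.0013 and a fold of 5.13, and that of OAS3, at chr12:112944821-112945000, a p of 0.00089 and a fold of 3.53. Both folds were in the lowest part of their list, at percentiles 16.4 and 8.79. The ubiquitin-like modifier ISG15, the RNA binder IFIT1 and the mitochondrial protein IFI6 had no peak.

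Among the 6 sensors and adaptors, MAVS and STING1 had named peaks. Over all protein-coding genes, 6840 of 20050 had a named peak in either list. Whether adaptors differ from sensors was not tested. MAVS, which relays signals of RIG-I and MDA5 at mitochondria, had 1 knockout and 2 SiHa peaks. The knockout peak at chr20:3873068-3873218 had a p of 0.00019 and a fold of 10.3. The SiHa peaks were stronger within their list, with a p of 4e-59 at chr20:3873547-3873997 (451 bases) and of 2.5e-16 at chr20:3871211-3871361. The knockout peak fell between them, 328 bases from the nearer one. STING1, the adaptor of cGAS, had a knockout peak at chr5:139475743-139475922, 299 bases before the RefSeq end, with a p of 2.3e-09 and a fold of 38.5, and no SiHa peak. DDX58, IFIH1, CGAS and TBK1 had no peak in either list, as held for most protein-coding genes.

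The strength of these peaks differed in rank between the lists. The 13 knockout peaks of named members had a median percentile of 66.9 by p within their list, against 52.2 for peaks of all named protein-coding genes. The 17 SiHa peaks had a median percentile of 34.3, against 51.6. In the knockout list 0 of the 13 peaks had a p of 0.01 or more, against 10.5% of all, and 0 had a false discovery rate above 0.05, against 23%. In the SiHa list 5 of 17 (29.4%) had a p of 0.01 or more, against 10.1% of all. These 5 SiHa peaks were in TAP1, TYK2, STAT3, IRF1 and MX1. The strongest knockout peaks of named genes were those of HLA-E and HLA-B, followed by NLRC5. The ranks refer to lists of different length, so they do not compare strength between the populations.

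**Figure D4:**
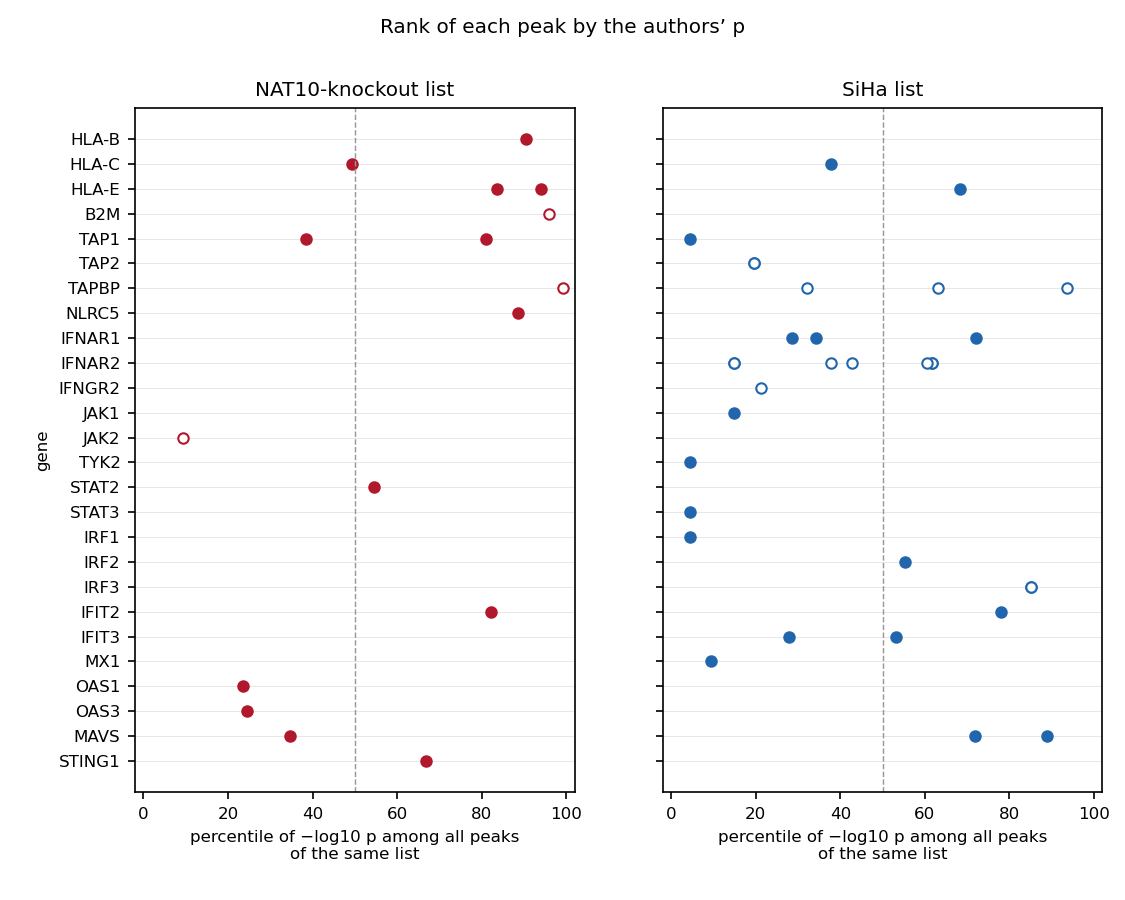
Percentile of each peak by −log10 of the authors' p among all peaks of its own list (horizontal axis), in the NAT10-knockout list on the left and the SiHa list on the right, for the genes with any peak; open points are peaks of unassigned identifiers and the dashed line is the list's median. HLA-B, HLA-E, B2M, TAP1, TAPBP, NLRC5 and IFIT2 have knockout peaks above percentile 80, while the SiHa peaks of TAP1, TYK2, STAT3 and IRF1 lie at 4.55.

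In length the peaks resembled the rest. The median length was 180 bases in the knockout list and 181 in the SiHa list, the same as over all named protein-coding genes. Several blocks were found in 3 of the 13 knockout peaks (23.1%, against 32.8% of all) and in 4 of the 17 SiHa peaks (23.5%, against 25.8%). Knockout peaks of these genes lay at a median of 55.3% of the span, against 77.6% for all, but in bases nearer to the gene's end, at a median of 2476 bases, against 6124. SiHa peaks lay at 85.5% of the span, against 84.1%, and 1916 bases from the end, against 4592. Members had 1.18 knockout peaks for each gene with one, against 1.25, and 1.31 SiHa peaks, against 1.85. Of the 13 knockout peaks, 7 (53.8%) had a fold that was a whole-number multiple of about 2.56 within rounding, as did 58.2% of the knockout peaks of all named protein-coding genes. They were the single peaks of HLA-B, NLRC5, OAS1, MAVS and STING1 and the strongest of TAP1 and HLA-E, although at 154 rounding is too coarse to tell.

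The genes of the wider pathway did not repeat the order of the lists in antigen presentation and sensing. The 58 further genes covered antigen processing, signalling, induced effectors and sensing. Of them, 15 (25.9%, background 14.4%) had a knockout peak and 18 (31%, background 28%) a SiHa peak. Peaks in both lists were found in 7 (background 8.31%), an unassigned peak in 2 and no peak in 30. Most protein-coding genes had no peak either. A knockout peak alone was found in 8 (background 6.08%) and a SiHa peak alone in 11 (background 19.7%). Of the 17 antigen processing genes among the 58, 4 had a knockout peak and 5 a SiHa peak, and of the 8 sensing genes 1 and 3. For the 9 signalling genes these counts were 2 and 3, and for the 24 induced genes 8 and 7. The genes with both were CANX and CD74, chaperones of class I and class II molecules, the STAT inhibitor PIAS1, the nuclear body proteins SP100 and PML, the signalling adaptor TRAF3 and the RNA editing enzyme ADAR. In ADAR 2 of the 3 knockout peaks lay wholly within SiHa peaks, the stronger with a −log10 p of 35.6 and a fold of 3.49. In CD74 the knockout peak shared 80% of its bases with a SiHa peak, but its p was 0.038 and its false discovery rate 0.526. Knockout peaks alone were found in ERAP2, RFX5, PTPN2, OASL, IFI16, IFITM2, GBP2 and SAMHD1. The single peaks of ERAP2 and GBP2 had a p of 0.01 and a false discovery rate of 0.526. At a false discovery rate of at most 0.05, 12 of the 58 genes had a knockout peak (background 11.5%), 6 of them alone (background 4.59%). RFX5, which binds the promoters of class I and class II genes, had 2, the stronger with a −log10 p of 12.7 and a fold of 8.2. SiHa peaks alone were found in 11 genes, led by the class I chaperone CALR, whose p was listed at 0, TRIM25, which ubiquitinates RIG-I, with a −log10 p of 40.3, the transcription factor STAT6 with 36.2, and the peptide-loading disulfide isomerase PDIA3 with 28.5.

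For orientation, the NAT10 gene itself carried a peak in the SiHa list (deposited p, 5e-37) and none in the knockout list, which is not a measure of its expression. Over all protein-coding genes 14.4% had a knockout peak and 28% a SiHa peak, and the marker sets are small beside that background. Of 9 epithelial markers, 3 (33.3%) had a knockout peak and 4 (44.4%) a SiHa peak, with KRT8 and KRT19 in both lists. Of 4 leukocyte markers, 2 (50%), PTPRC and CD14, had a knockout peak and 0 a SiHa peak. The CD14 peak had a p of 0.038 and a false discovery rate of 0.526, and both folds were multiples of 2.56 within rounding. The part of other cells or of unspecific capture in the knockout peaks was not tested.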

How the data were processed

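Immunoprecipitated and input RNA of 2 populations was sequenced, with 2 libraries for each of 4 groups. FastQC 0.11.7 and GRCh38 (hg38) were used, per the submitters' processing notes. Not given in the sources used here are the aligner, peak caller, annotation and treatment of replicates. From each population, 1 peak list was deposited by the authors. That the list with an added K in its name is the knockout is read from the name. In both, the column named score holds the authors' p-value. The knockout list also gives the authors' fold enrichment, a ratio of unstated reference, and 2 deposited score columns, log10 of the p and of the false discovery rate. No depth is known and no interval was computed.

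Peaks off the chromosomes (2 knockout, 3 SiHa) and 1 repeated SiHa line were dropped, which left 4557 and 12924 peaks. Identifiers were named by RefSeq span, with strand taken from the RefSeq promoter table, which gave it for 27305 of 59716 spans; elsewhere either strand was accepted. Of 9046 identifiers 7379 (81.6%) were named. Among those touching a single span of known strand, 96.8% lay on its strand. On simulated peaks placed wholly inside 1 span of known strand, 1874 of 2000 identifiers were named, all to the right gene. This placement left no room for a wrong name, so it does not measure errors of naming in the lists. Peaks overlapped when blocks on the same strand shared 1 base. Python 3.11, pandas 2.3.3 and matplotlib 3.10.9 were used. Alternatives were another threshold on p or false discovery rate, a shortened SiHa list, other naming, reciprocal overlap, and knockout peaks off the series of multiples of 2.56. All 38 genes are named in the text. From the further pathway list, genes with peaks in both lists or in the knockout list alone are named, and the 4 strongest with a SiHa peak alone. The genes and lists were chosen with earlier results of these data known. No genome was used, so the sequence of peaks inside genes and their placement in exons were not analysed here.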

Additional observations from a re-analysis of the deposited data

How the results depend on the processing

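The counts of members rest on thresholds and on naming. Without knockout peaks on the series of multiples of 2.56, 6 members had a knockout peak (HLA-C, HLA-E, TAP1, STAT2, IFIT2 and OAS3). A knockout peak alone was then found in 2 (5.26%, background 2.28%). With peaks of −log10 p above 5, 8 had a knockout peak and 6 a SiHa peak. Peaks in both lists were then found in 2 (5.26%, background 4.15%). A knockout peak alone was found in 6 (15.8%, background 4.24%) and a SiHa peak alone in 4 (10.5%, background 15%). When the 4557 strongest SiHa peaks alone were used, 4 had a SiHa peak (10.5%, background 13.8%), 3 peaks in both lists (7.89%, background 5.02%) and 1 a SiHa peak alone (2.63%, background 8.8%). These settings use fewer peaks, and what else moved the counts was not tested. Overlapping peaks were found in 0 members (background 2.9%) when strand was not used in naming. The span of LIPA then held as much of the IFIT2 peaks. When any peak on the strand counted, 2 members (5.26%, background 3.67%) had overlapping peaks. The remaining counts stayed within 1.5 times. With peaks of −log10 p above 5, 21.1% of the members had a knockout peak, against 8.39% of all protein-coding genes, and 15.8% a SiHa peak, against 19.1%. No paired analysis was possible because the lists hold no value of a single replicate. Replicates could not be left out for the same reason. Depth is unknown, so a gene without a peak is not shown to lack ac4C.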
